A study of Mus musculus with 12 samples.

Results

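The response of Foxp1flox/del B cells to IgM sets 3 arrays of IgM-stimulated Foxp1flox/del cells against 3 arrays of unstimulated Foxp1flox/del cells. These are 6 of the 12 arrays of the series. The arrays were taken by their titles, and the replicate number in the title paired an IgM array with an unstimulated one. The cells were B220+ B cells sorted from mouse spleen, of mixed 129/Sv-C57BL/6 background, and were kept for 4 h either without a stimulus or with what the labels call IgM. The genotype Foxp1flox/del names a floxed and a deleted allele of Foxp1, and these cells are called deleted cells here. The other 6 arrays held Foxp1wt/flox cells, with a wild-type and a floxed allele, under both treatments (3 arrays each), and are called control cells. They were part of the same fit, so that standard errors and p-values for the deleted cells rest on all 12 arrays. The labels name no recombinase, no animal age and no source of the stimulus, and they do not say whether replicates came from separate mice, so that the p-values speak of the spread among these samples, which may be technical. Each value is a log2 expression value, so that a difference of 1 is a doubling, and the lowest value on the arrays was 2.23.

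The B cell receptor is a membrane immunoglobulin held by the signalling chains Cd79a and Cd79b, and naive mature B cells carry it as IgM. When it is engaged, the kinases Lyn, Syk and Btk open calcium, MAP kinase, PI3 kinase and NF-kB pathways, and within hours a resting B cell induces immediate early transcription factors, enlarges its biosynthetic machinery and leaves quiescence. Foxp1 is a forkhead transcription factor of B cells, studied in early B cell development and in mature B cell survival. PI3 kinase signalling keeps the related Foxo factors out of the nucleus, and Foxo factors maintain genes of quiescence and homing.

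Foxp1 itself gave 8 probe sets, and on each of them the arrays of deleted and control cells overlapped. Set side by side by replicate number, every deleted array was below its control array on some probe sets, while most had no such order. On 1 of them the unstimulated arrays read 11.34, 11.76 and 11.46 in deleted cells against 11.50, 11.90 and 12.03 in control cells. With IgM it read 10.78, 11.37 and 11.47 against 11.03, 11.52 and 11.71. This difference between genotypes was not tested. On the probe set with the highest signal the unstimulated deleted arrays read 12.26, 13.16 and 13.20 (replicates 1 to 3) and the deleted IgM arrays 12.14, 12.74 and 13.06, against 12.27, 13.14 and 13.30 and 12.08, 12.91 and 13.06 in control cells. The part of the transcript that these probe sets read is not given in the sources used here, so that they neither check the deletion nor the labels. With IgM the Foxp1 level moved by -0.23 ± 0.13 (log2 change ± standard error of the fit, 3 pairs, adjusted p = 0.21), which did not pass the threshold. In a test of every probe set the 8 Foxp1 probe sets had changes of -0.55 to -0.21, and 1 of them passed (-0.55 ± 0.14, adjusted p = 0.0147).

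B cell genes were high on all 6 deleted arrays. The mean log2 level of 13 B cell marker genes was 12.30 to 12.39 on the unstimulated arrays and 11.55 to 11.63 on the IgM arrays. Of these genes 2 rose and 6 fell, beside 17.3% and 19.3% of all genes tested. Ms4a1 (CD20) lay between 12.85 and 13.96 and Ighm between 13.86 and 14.61. Other cell types left signal. Of 13 neutrophil genes on the array, 10 were detected, with a mean level of 8.45, 7.06 and 5.13 on unstimulated replicates 1 to 3 and 7.84, 6.66 and 3.83 on the IgM replicates; S100a8 ran from 3.17 to 11.85. The T cell list averaged 3.88 to 5.10 with Cd4 and Thy1 at the floor, but Il7r at 8.29 to 10.15. The macrophage list averaged 3.89 to 4.73 with C1qa and C1qc at the floor, but Lyz2 at 7.15 to 11.29. For the erythroid list the mean was 3.39 to 4.95 with Hba-a1 at the floor, but Alas2 at 6.47 to 9.71. In these lists 4 of 12, 7 of 14 and 4 of 8 genes on the array were at or below 4 on all 6 arrays. The NK cell list averaged 5.55 to 7.33 and the dendritic cell list 3.87 to 4.68. Means of the platelet list were 2.71 to 4.09 and those of the plasma cell list 8.80 to 9.39. The neutrophil mean was lower on the IgM array of every pair, and so were the means of the B cell, T cell, NK cell, macrophage and erythroid lists. The dendritic cell, platelet and plasma cell means were not lower in every pair. Of the 10 neutrophil, 7 macrophage, 3 erythroid and 1 platelet genes tested 0 passed in limma, beside 36.7% of all genes. Of those tested, 5 had an unadjusted p under 0.05. Among the NK genes 4 of 9 tested fell (Klrd1 by 1.08), beside 19.3% of all genes, and Tbx21 rose by 1.83. Among the 6 T cell genes tested Cd3g fell by 1.18. Among the 4 dendritic cell genes tested Zbtb46 rose by 2.29 and Cd209a fell by 1.39. The part of such cells in the changes reported was not tested, and in a bulk sample fewer cells of a type and less RNA per cell cannot be told apart.

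One array stood apart. The 3 unstimulated deleted arrays correlated with each other at Pearson's r of 0.951 to 0.975 across genes, and IgM replicates 1 and 2 at 0.979, whereas IgM replicate 3 reached 0.817 and 0.865 with them. The differences between IgM and unstimulated arrays had r = 0.93 across genes between pairs 1 and 2, but 0.57 and 0.58 between pair 3 and those pairs, and their SD across genes was 0.88, 0.80 and 1.42 in pairs 1 to 3 (0.83 to 0.98 in the control pairs). Genes are not independent replicates, so these values describe the arrays. The shift of pair 3 followed the length of the gene. In the fifth of genes with the shortest span on the genome, with a median of 4.42 kb, the median change was -1.17 in pair 3 and -0.12 and -0.07 in pairs 1 and 2, while in the 2 classes of longest genes it was 0.49 and 0.46 in pair 3 against -0.20 to 0.00 in the others. The control pairs stayed within -0.15 and 0.00 in every class. The results were therefore fitted again without deleted IgM replicate 3, keeping the other 11 arrays, including unstimulated replicate 3. Of the named genes, 106 passed the threshold in deleted cells, and all 106 also passed in that fit in the same direction. The fold moved by more than 1.5 times for 16 of them, and for these both values are given. Counts and medians of the gene lists are given for both fits.

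**Figure D1:**
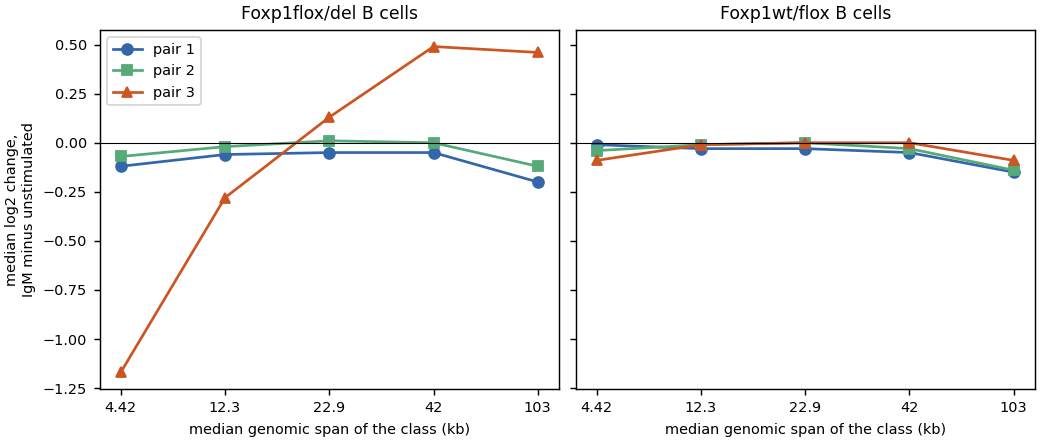
Median log2 change (IgM minus unstimulated, y axis) of 5 classes of genes ordered by genomic span (x axis, median span of the class in kb), for each replicate pair in Foxp1flox/del cells (left) and Foxp1wt/flox cells (right). Pair 3 of the deleted cells runs from -1.17 in the shortest class to 0.46 in the longest, while the other 5 pairs lie between -0.20 and 0.01.

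IgM shifted the transcriptome of deleted cells in both directions. Of 9293 genes tested, 3408 (36.7%) passed an adjusted p of 0.05 (limma with the replicate number as a block, Benjamini-Hochberg over all genes), 1612 (17.3%) higher and 1796 (19.3%) lower with IgM. The change was at least 1 log2 unit for 857 of the rises and 1114 of the falls, and at least 2 units for 160 and 200. The median over all genes was -0.08. Without IgM replicate 3 the count was 4976 (53.5%), 2262 higher and 2714 lower, and the median standard error of a gene was 0.13 instead of 0.23. Of the 3408 genes, 3320 were called in both fits, each in the same direction. Without the replicate block 1765 genes passed (19.0%), 909 higher (9.78%) and 856 lower (9.21%). When the 6 deleted arrays were fitted alone, 897 genes passed, 454 higher and 443 lower. Leaving out unstimulated replicate 3 instead gave 2241 genes, with 1144 falls. All 3 IgM arrays lay above all 3 unstimulated arrays for 1544 genes (16.6%) and below them for 1662 (17.9%). A filter on low values (above 4 on at least 3 of the 12 arrays) let 47 of the called rises through by their IgM arrays alone and 113 of the called falls by their unstimulated arrays alone.

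The 15 largest rises joined transcription factors, receptors and signalling proteins. They were taken, like the 15 largest falls, from genes whose IgM and unstimulated arrays do not overlap, so that the lack of overlap is part of the choice. Lonrf3, a RING finger protein, read 4.20, 4.25 and 3.26 on the unstimulated arrays and 8.41, 8.34 and 8.90 on the IgM arrays. It rose by 4.64 ± 0.31, or 25.0-fold (adjusted p = 3.44e-05), the most of all named genes with all arrays and the probe sets chosen. Amz1, a metallopeptidase, read 3.61, 4.26 and 4.26 and then 8.75, 8.33 and 8.88, a rise of 4.61 ± 0.28. Both went from near the limit of detection to a middle level on every array. S1pr3, a receptor for sphingosine 1-phosphate, which guides lymphocyte movement, rose from 6.76, 6.55 and 6.15 to 10.94, 10.35 and 11.42 (4.42 ± 0.34, adjusted p = 6.1e-05). Axl, a receptor tyrosine kinase of the TAM family that binds Gas6, rose from 2.88, 4.13 and 2.54 to 7.02, 7.23 and 8.14 (4.28 ± 0.42). Axl and Tacc2 passed the filter on low values only through IgM arrays, so that they had to differ, and their changes are a description. Egr2, a zinc finger factor induced by antigen receptors, rose from 8.72, 9.63 and 9.20 to 12.82, 12.85 and 13.46 (3.86 ± 0.21, 14.5-fold, adjusted p = 1.78e-05). The orphan nuclear receptor Nr4a2 rose by 4.06, the repressor Gfi1 by 3.81, the zinc finger factor Hivep3 by 3.81, the small Maf factor Maff by 3.69, the coiled-coil protein Tacc2 by 4.26, the scaffold protein Grasp by 4.00, the phospholipase-like protein Plcxd1 by 4.11, the Rag GTPase Rragd, which acts in amino acid sensing upstream of mTORC1, by 3.76, the growth factor Vegfa by 3.71 and the G protein subunit Gng4 by 3.61. Leaving out IgM replicate 3 kept all 15 past the threshold, with changes of 3.41 to 4.46, the largest that of Amz1 (4.40 for Lonrf3). In a test of every probe set with all arrays, another S1pr3 probe set rose by 5.02.

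The largest falls included genes that reached the floor. Hsd17b13, a lipid droplet protein of the hydroxysteroid dehydrogenase family, read 8.13, 7.89 and 8.60 without and 2.96, 2.45 and 2.39 with IgM, a fall by 5.61 ± 0.21. B3gnt8, a glycosyltransferase, fell from 9.92, 9.33 and 9.17 to 5.78, 5.44 and 3.68 (by 4.51 ± 0.39), and Zfhx3, a zinc finger homeobox factor, from 8.22, 9.65 and 8.71 to 4.27, 5.12 and 4.99 (by 4.07 ± 0.38). Hsd17b13, B3gnt8 and Neo1 passed the filter on low values only through unstimulated arrays, so that their falls are a description. The calcium-binding protein S100a6 read 12.10, 11.69 and 10.92 without IgM and 9.50, 9.03 and 4.45 with it. Its fall by 3.91 ± 0.67 (15-fold) dropped to 2.79 (6.94-fold) without IgM replicate 3, so that the third pair carried much of its size. The same array moved the fold of Pla1a, a phosphatidylserine phospholipase, by more than 1.5 times (fall by 3.97, without it by 3.19), and likewise that of the retrotransposon-derived gene Rtl5 (3.76 and 4.51) and of the cyclin-dependent kinase inhibitor Cdkn2d (3.32 and 2.55), with each fall past the threshold in both fits. Rasgrp2, which activates the integrin regulator Rap1, fell by 3.61 ± 0.26, the glutaminyl cyclase Qpct by 3.71, the acid phosphatase Acp5 by 3.69, the planar polarity protein Vangl2 by 3.61, the netrin receptor family member Neo1 by 3.47, the GTPase Gimap7 by 3.47, the membrane protein Smagp by 3.41 and the retinol dehydrogenase Rdh12 by 3.33.

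**Figure D2:**
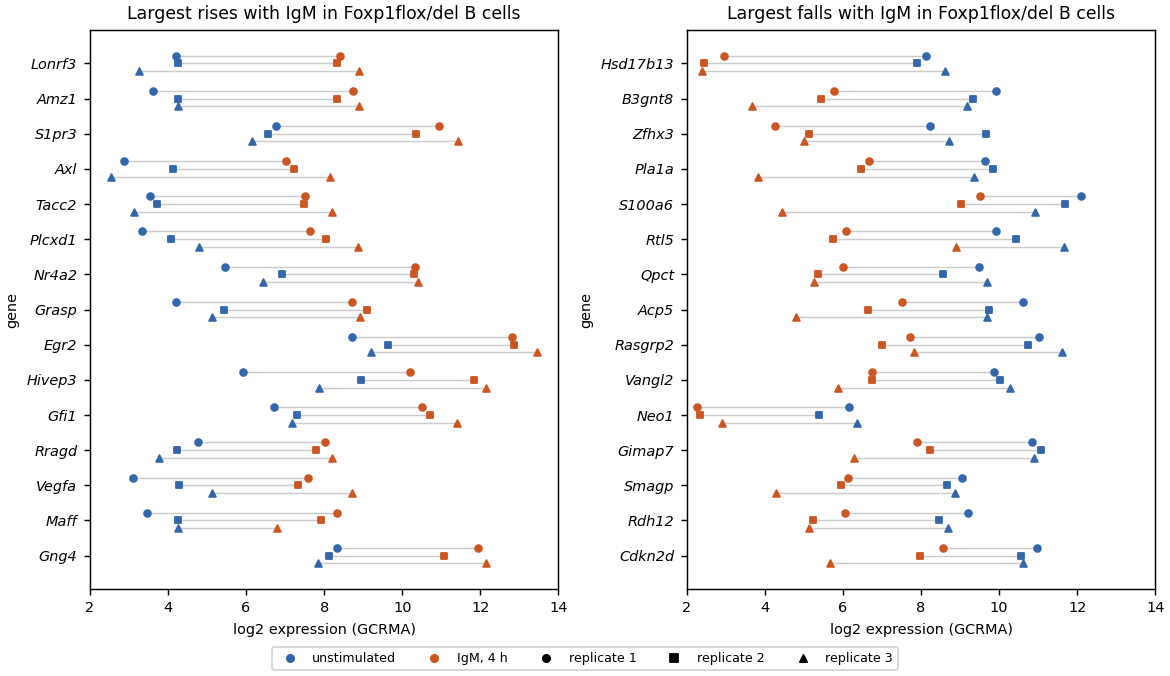
Log2 expression (x axis) of the 15 largest rises (left) and falls (right) with IgM in Foxp1flox/del cells, 1 row per gene, with a line joining the unstimulated (blue) and IgM (orange) array of each replicate pair. Genes were chosen for having no overlap between the groups, and for S100a6 replicate 3 (triangles) goes from 10.92 to 4.45.

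Promoter sequences show what letters lie at the start of these genes. They run from 250 bases before to 50 after the annotated start, come from RefSeq on GRCm38.p6, and are printed 5′ to 3′ on the gene's strand with matches in capitals. Both strands were searched for the cyclic AMP response element (TGACGTC), the AP-1 site (TGACTCA), the CArG box of serum response factor, an Egr site (GTGGGCG), a forkhead site (GTAAACA) and the E-box bound by Myc and other factors (CACGTG), and 7645 of the 9293 genes had at least 1 promoter in the table. The first 3 belong to the 2 largest rises and the largest fall with a match. Lonrf3 (chrX:36328159-36328458, plus strand) holds an E-box 45 bases before its start. Axl (chr7:25788684-25788983, minus strand) holds an Egr site 12 bases before and a forkhead site, read on the other strand, 229 bases before it. S100a6 (chr3:90612644-90612943, plus strand) holds an E-box 14 bases after it.
Lonrf3: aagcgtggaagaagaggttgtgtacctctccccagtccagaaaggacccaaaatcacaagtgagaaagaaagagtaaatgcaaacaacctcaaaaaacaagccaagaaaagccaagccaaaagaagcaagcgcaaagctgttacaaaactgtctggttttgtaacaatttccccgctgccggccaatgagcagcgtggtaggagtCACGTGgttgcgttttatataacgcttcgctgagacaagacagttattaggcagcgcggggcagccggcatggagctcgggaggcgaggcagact
Axl: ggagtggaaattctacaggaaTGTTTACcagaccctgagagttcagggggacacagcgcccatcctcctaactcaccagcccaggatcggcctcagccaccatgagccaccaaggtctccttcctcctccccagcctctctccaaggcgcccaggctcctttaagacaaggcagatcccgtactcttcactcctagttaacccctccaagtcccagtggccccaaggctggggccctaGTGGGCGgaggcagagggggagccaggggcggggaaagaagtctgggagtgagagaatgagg
S100a6: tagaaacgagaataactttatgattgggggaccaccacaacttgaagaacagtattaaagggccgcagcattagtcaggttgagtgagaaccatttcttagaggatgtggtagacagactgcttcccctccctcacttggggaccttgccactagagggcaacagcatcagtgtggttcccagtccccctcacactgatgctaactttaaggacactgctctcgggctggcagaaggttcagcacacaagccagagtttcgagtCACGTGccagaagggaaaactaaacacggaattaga

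A further pair was chosen after its values and letters had been seen, to show an immediate early gene and a ribosome biogenesis gene. Egr2 has 5 annotated promoters. The one printed (chr10:67537619-67537918, plus strand) holds a CArG box 72 bases and a cyclic AMP response element 57 bases before the start. Tsr1, a factor of small ribosomal subunit assembly (chr11:74897830-74898129, plus strand), holds an E-box 24 bases after it, and it rose by 1.86.
Egr2: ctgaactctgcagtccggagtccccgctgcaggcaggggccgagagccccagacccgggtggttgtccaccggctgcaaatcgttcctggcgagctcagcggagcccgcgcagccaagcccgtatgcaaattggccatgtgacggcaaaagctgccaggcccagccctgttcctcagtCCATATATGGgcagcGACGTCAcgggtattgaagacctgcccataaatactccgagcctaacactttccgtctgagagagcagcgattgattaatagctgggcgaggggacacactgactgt
Tsr1: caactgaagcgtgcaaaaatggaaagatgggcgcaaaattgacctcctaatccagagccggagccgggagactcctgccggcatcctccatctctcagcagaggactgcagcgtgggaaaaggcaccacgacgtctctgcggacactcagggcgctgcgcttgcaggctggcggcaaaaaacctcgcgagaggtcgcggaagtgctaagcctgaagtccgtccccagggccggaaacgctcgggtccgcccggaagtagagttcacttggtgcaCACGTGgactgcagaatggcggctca

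The E-box lay in 15.4% of the 1670 promoters of genes that rose and in 7.05% of the 1958 promoters of genes that fell, beside 10.6% of the promoters of all genes tested and 7.15% of all promoters in the table. The cyclic AMP response element lay in 8.26% of the first and 3.98% of the second, beside 5.77% of those tested. Among the 166 promoters of rises of at least 2 log2 units its share was 5.42%, and that of the E-box 15.1%. The AP-1 site lay in 3.35% of promoters of rises and 3.27% of those of falls, beside 3.33% of those tested. For the Egr site the shares were 15.3% and 13.5%, beside 14.6%. Within the gene lists, 9 of 46 ribosome biogenesis promoters (19.6%) held an E-box. The share was higher in the Myc network (4 of 11, 36.4%) and in cholesterol and fatty acid synthesis (7 of 32, 21.9%). The cytokine, homing and interferon lists held none. Of 25 immediate early promoters, 5 held a cyclic AMP response element and 5 a CArG box (1.27% of those tested). The 46 promoters belong to 42 genes and the 25 to 19 genes, with 5 from Egr2 alone. Matches were counted per promoter, so that several can come from 1 gene. The forkhead letters lay in 2.28% of promoters of genes that rose, 3.22% of those that fell and 2.60% of those tested. A match of letters is a description and not a measured binding site.

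Immediate early factors rose together. These are transcription factors that cells induce without new protein synthesis, and 20 of 28 tested rose with IgM, beside 17.3% of all genes, while Jund fell by 1.30. Their median change was 1.56, beside -0.08 over all genes, and without IgM replicate 3 it was 1.42 with 22 higher. Nr4a2 read 5.46, 6.93 and 6.43 on the unstimulated arrays and 10.32, 10.29 and 10.40 on the IgM arrays. Its relative Nr4a3 rose from 7.91, 8.89 and 8.18 to 11.23, 11.56 and 12.20 (3.34 ± 0.26, adjusted p = 6.35e-05). The 3 IgM arrays of Nr4a2 lay closer to each other than its unstimulated arrays did. Myc, the growth-promoting factor, rose from 9.26, 10.10 and 9.75 to 11.91, 12.18 and 12.48 (2.49 ± 0.17, 5.60-fold, adjusted p = 3.44e-05), with no overlap.

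Around Myc, 3 of 10 network members rose and 2 fell, beside 17.3% and 19.3% of all genes (median 0.12), with 3 of each and a median of 0.06 without IgM replicate 3. Mxd4 and Mxi1, which compete with Myc for its partner Max, fell by 1.74 and 1.08, and the Max-binding repressor Mga rose by 1.07 with overlapping arrays (adjusted p = 0.00377, and 0.344 without the replicate block).

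Of 34 inhibitors that feed back on receptor signalling, 12 rose and 3 fell, beside 17.3% and 19.3% of all genes, and 19 did not pass. Their median was 0.39, and without IgM replicate 3 it was 0.43, with 16 rises and 3 falls. The MAP kinase phosphatase Dusp4 read 8.56, 8.87 and 9.31 without and 11.18, 11.45 and 12 with IgM (2.63 ± 0.20, adjusted p = 5.84e-05), the Ras pathway inhibitor Spred1 rose by 2.28 and the G protein regulator Rgs1 by 1.82 (2.27 without IgM replicate 3). Spry1, an inhibitor of receptor tyrosine kinase signalling, moved the other way, from 6.72, 6.91 and 6.15 to 3.67, 3.81 and 3.42 (fall by 2.96 ± 0.28, adjusted p = 0.000143), and is taken up with the control cells below.

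More components of antigen receptor signalling fell than rose. Of 29 tested, 17 fell and 6 rose, beside 19.3% and 17.3% of all genes, with a median of -0.59. Without IgM replicate 3 the median was -0.63, with 21 falls and 6 rises. Without the replicate block the excess of falls was nearly gone, with 6 falls and 5 rises, beside 9.21% and 9.78% of all genes. Cd79a, the receptor's signalling chain, read 14.51, 14.51 and 13.75 without and 13.37, 12.70 and 9.03 with IgM, where the array of replicate 3 was far below the others. Its fall was 2.56 ± 0.67 (adjusted p = 0.0159), and 1.49 without that array (adjusted p = 0.00341). It did not pass without the replicate block (adjusted p = 0.0729). Without unstimulated replicate 3 the call was lost (adjusted p = 0.0776), and leaving out any one deleted array other than IgM replicates 2 and 3 left 9 to 11 falls in the list. The kinase Syk fell from 11.43, 11.44 and 11.19 to 9.02, 8.76 and 10.11 (by 2.06 ± 0.28, adjusted p = 0.000689) and the inhibitory lectin Siglecg from 9.80, 9.76 and 10.33 to 7.32, 7.58 and 8.88 (by 2.04 ± 0.20). For both of these, replicate 3 fell the least, the reverse of Cd79a. The complement receptor Cr2 (CD21) rose from 8.19, 8.97 and 9.0 to 10.36, 10.50 and 11.93 (2.21 ± 0.26, adjusted p = 0.000359).

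Of 20 NF-kB subunits and targets tested, 6 rose and 2 fell, beside 17.3% and 19.3% of all genes, and 12 did not pass (median 0.25). Leaving out IgM replicate 3 gave 11 rises and 4 falls (median 0.29). The subunit Rel, which B cells need for growth after receptor signals, rose from 8.77, 9.61 and 9.12 to 11.06, 11.38 and 11.77 (2.24 ± 0.18, adjusted p = 7.18e-05), and the inhibitor Nfkbie rose by 1.65 ± 0.16. The lymphotoxin chain Ltb fell from 13.63, 13.72 and 13.62 to 11.87, 11.76 and 9.35 (by 2.66 ± 0.48, and by 1.93 without IgM replicate 3), and the nuclear cofactor Bcl3 fell by 1.66.

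Surface proteins of activation showed 8 rises and 4 falls among 21 tested, beside 17.3% and 19.3% of all genes. Their median had no settled direction. It was 0.06 with all arrays, -0.06 without IgM replicate 3 (9 rises, 5 falls), -0.12 without unstimulated replicate 3 (2 falls), 0.17 without IgM replicate 2 and 0.21 without unstimulated replicate 1. Il2ra, the high-affinity chain of the interleukin-2 receptor, read 6.06, 7.02 and 6.27 and then 8.88, 9.29 and 10.21 (3.01 ± 0.30, 8.04-fold, adjusted p = 0.000162). Cd69, an early activation antigen that retains lymphocytes in tissue, rose by 2.05 ± 0.22 and the transferrin receptor Tfrc by 1.80 ± 0.20. Icosl, the ligand of the T cell costimulator ICOS, fell from 8.58, 9.48 and 9.50 to 5.47, 6.50 and 6.78 (by 2.94 ± 0.24, adjusted p = 7.55e-05).

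Among 17 cytokines and chemokines tested, 4 rose and 5 fell, beside 17.3% and 19.3% of all genes, and the direction of their median depended on the scaling and on 1 array: it was -0.02 in all arrays, 0.06 with arrays centred on their medians and 0.47 without IgM replicate 3, when 7 rose and 3 fell. Without IgM replicate 1 or unstimulated replicate 1 the rises numbered 2, and without unstimulated replicate 1 or 3 the falls numbered 3. Vegfa rose from 3.10, 4.28 and 5.13 to 7.59, 7.33 and 8.72. Il16, a chemoattractant for CD4+ cells, fell by 1.67 and Il12a, a chain of interleukin-12, by 1.46. Ccl3 and Ccl4, chemokines that recruit T cells, were named after their values were seen: their changes of 1.05 and 1.32 did not pass, and without IgM replicate 3 they rose by 2.0 and 2.11.

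Genes of homing and egress gave 6 rises and 9 falls among 24 tested, beside 17.3% and 19.3% of all genes (median -0.27), and 7 and 12 without IgM replicate 3 (median -0.55), and 3 rises without any one of the unstimulated replicates. Klf2, the factor that maintains egress receptors and quiescence, read 12.35, 12.16 and 12.09 and then 9.94, 9.95 and 8.68 (fall by 2.68 ± 0.25, adjusted p = 0.00014). S1pr4 fell by 2.77 ± 0.20 and the chemokine receptor Cxcr3 by 2.29 ± 0.22, while S1pr3 was among the largest rises. Receptors of one lipid, sphingosine 1-phosphate, thus moved in opposite directions.

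Quiescence genes, most of them known targets of Foxo factors, fell in 16 of 27 cases, beside 19.3% of all genes. Their median was -0.65, and without IgM replicate 3 it was -0.75, with 21 falls and 2 rises. Ypel3, a growth suppressor, went from 11.09, 10.79 and 10.85 to 8.72, 8.37 and 6.36 (fall by 3.09 ± 0.40, and by 2.43 without IgM replicate 3). Cdkn1b (p27), an inhibitor of cyclin-dependent kinases, went from 10.92, 11.09 and 11.38 to 9.80, 9.76 and 7.62 (fall by 2.07 ± 0.52, and by 1.20 without that array; adjusted p = 0.0657 without unstimulated replicate 3). In both genes the IgM array of replicate 3 was the lowest. The other Cdkn1b probe set, in a test of every probe set, had a change of -0.70 and did not pass (adjusted p = 0.112). The member that rose, Tob2, an antiproliferative protein, did so by 0.61.

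Of 29 transcription factors of B cell identity, 8 fell and 3 rose, beside 19.3% and 17.3% of all genes, and 18 did not pass (median -0.25). The fit without IgM replicate 3 had 16 falls and 5 rises (median -0.43). Pax5, the factor of B cell commitment, read 9.15, 8.67 and 7.05 and then 6.48, 6.45 and 5.76 (fall by 2.06 ± 0.28, adjusted p = 0.000673), Id3 fell by 2.71 ± 0.48 (1.91 without IgM replicate 3) and Pou2f2 (Oct2) by 2.50 ± 0.30 (adjusted p = 0.0574 without the replicate block). Prdm1 (Blimp-1), which drives plasma cell differentiation and represses Pax5, rose from 7.16, 6.65 and 6.72 to 9.23, 8.69 and 9.57 (2.32 ± 0.27, 4.99-fold, adjusted p = 0.000319). Every IgM array of Prdm1 was more than 1 unit above every unstimulated one.

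Survival genes moved both ways, with 6 rises and 6 falls among 23 tested, beside 17.3% and 19.3% of all genes (median -0.21). There were 8 rises and 10 falls without IgM replicate 3 (median -0.32). Among the anti-apoptotic members, Bcl2l1 (Bcl-xL) read 7.93, 7.14 and 6.94 and then 9.50, 8.58 and 8.25 (rise by 1.44 ± 0.17, adjusted p = 0.000301). Bcl2 read 8.65, 9.15 and 8.90 and then 7.65, 8.05 and 7.83 (fall by 1.06 ± 0.14, adjusted p = 0.000568). The pro-apoptotic BH3-only gene Bcl2l11 (Bim) rose from 11.16, 11.00 and 10.72 to 12.32, 12.15 and 12.15 (1.25 ± 0.14, adjusted p = 0.000293). Thus Bcl2l1 and its antagonist Bcl2l11 both rose without overlap, and Bcl2 fell without overlap. Mcl1, which mature B cells require, changed by -0.21 ± 0.13 (adjusted p = 0.239), and by -0.27 without IgM replicate 3 (adjusted p = 0.029). In a test of every probe set its 6 probe sets had changes of -0.63 to -0.21. The largest of these passed (-0.63 ± 0.16, adjusted p = 0.0126) and the others did not. The survival kinases Pim3 and Pim2 differed in direction, with a rise by 1.37 and a fall by 1.68.

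Ribosome biogenesis rose almost as a whole. Of 47 tested genes that make ribosomal RNA and assemble ribosomes, 39 rose, beside 17.3% of all genes, and the other 8 did not pass, with a median of 1.44. Rrp1b, a nucleolar processing factor, read 7.07, 7.85 and 7.90 and then 10.03, 10.46 and 11.81 (3.16 ± 0.30, 8.92-fold, adjusted p = 0.000148). Polr1b, a core subunit of RNA polymerase I, rose from 7.28, 7.65 and 7.42 to 9.70, 9.66 and 10.92 (2.65 ± 0.30), the nucleolar protein Nolc1 rose by 2.46 and the RNA acetyltransferase Nat10 by 2.34. Without IgM replicate 3 all 47 rose, with a median of 1.48. The 8 that had not passed, named for that reason, included the snoRNA-protein subunits Nop10, Nhp2, Gar1 and Fbl, whose changes of -0.15, 0.60, 0.68 and 0.33 became 0.58, 1.28, 1.34 and 0.84.

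Genes of amino acid supply did likewise. Of 35 transporters, synthetic enzymes, tRNA synthetases and ATF4 targets, 31 rose, beside 17.3% of all genes, and 4 did not pass (median 1.31), and 34 rose without IgM replicate 3 (median 1.15). Shmt1, which moves serine carbon into the folate cycle, went from 6.89, 6.96 and 6.06 to 10.19, 9.82 and 9.60 (3.23 ± 0.19, adjusted p = 2.69e-05), the neutral amino acid transporter Slc1a4 rose by 2.48, the cysteine-producing enzyme Cth by 2.38 and the stress pseudokinase Trib3 by 1.98. The member that passed in neither fit was Wars, at -0.02 and -0.23.

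Of 32 chaperones 18 rose, beside 17.3% of all genes, and the other 14 did not pass (median 0.43). In the fit without IgM replicate 3 there were 22 rises and 1 fall (median 0.41). The mitochondrial chaperones Hspa9 and Hspd1 rose by 1.67 and 1.45, the Hsp70 cofactor Hsph1 by 1.46 and Cct6a, a subunit of the cytosolic chaperonin, by 1.04. Without the replicate block 7 chaperones passed, and 10 or 11 without any one of the unstimulated replicates.

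In glycolysis and the pentose phosphate pathway 8 of 20 rose and 3 fell, beside 17.3% and 19.3% of all genes (median 0.26), and 10 rose and 4 fell without IgM replicate 3 (median 0.23). The rises numbered 5 without unstimulated replicate 2, the falls 1 without unstimulated replicate 3, and the median was 0.41 without IgM replicate 2. The lactate and pyruvate transporter Slc16a1 rose from 9.84, 9.93 and 9.60 to 12.09, 11.99 and 12.94 (2.55 ± 0.25, adjusted p = 0.000153), hexokinase Hk2 by 2.46 and phosphofructokinase Pfkp by 2.28. Rpia, which makes ribose 5-phosphate, read 11.92, 11.99 and 11.65 and then 11.06, 10.89 and 8.31. Its fall was 1.77 ± 0.45, and 1.01 without IgM replicate 3, and the call was lost without unstimulated replicate 3 (adjusted p = 0.074). Sterol and fatty acid synthesis gave 13 rises and 3 falls among 31, beside 17.3% and 19.3% of all genes (median 0.52). Without IgM replicate 3 there were 16 rises and 6 falls (median 0.44), and without unstimulated replicate 1 or 3 there was 1 fall. The cholesterol pathway enzymes Idi1, Cyp51, Sqle and Lss rose by 2.0, 1.96, 1.95 and 1.90.

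In the cell cycle lists few genes passed. Of 30 genes of the G1/S transition and DNA replication, 4 rose and 4 fell, beside 17.3% and 19.3% of all genes (median -0.24), and 6 rose and 6 fell without IgM replicate 3 (median -0.23). The rises numbered 2 without unstimulated replicate 3, and the median was -0.07 without unstimulated replicate 1. The D-type cyclins moved apart: Ccnd2 read 10.54, 11.08 and 10.45 and then 11.84, 12.12 and 12.92 (1.61 ± 0.25, adjusted p = 0.00136), and Ccnd3 read 9.97, 9.25 and 9.14 and then 7.88, 7.60 and 6.91 (fall by 1.99 ± 0.19, adjusted p = 0.000153). E2f2 fell by 2.32 and Ccne1 by 1.34. Among 29 genes of G2/M and mitosis 0 rose and 2 fell, beside 17.3% and 19.3% of all genes, and 27 did not pass (median -0.24). The falls were those of Aurkb by 1.21 (its arrays overlapped) and Ndc80 by 1.11. Without IgM replicate 3 there were 3 falls (median -0.35), and 5 without IgM replicate 1. Both calls were lost without unstimulated replicate 1 (adjusted p = 0.0649 and 0.052). The median of that list was -0.60 and -0.36 in pairs 1 and 2 but 0.44 in pair 3.

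Interferon-induced genes fell in 15 of 26 cases, beside 19.3% of all genes, and the other 11 did not pass (median -0.99). Ifit3 read 8.13, 9.09 and 9.20 and then 6.59, 7.37 and 5.69 (fall by 2.26 ± 0.37, adjusted p = 0.00162). Bst2 (tetherin), read at 11.33, 11.07 and 10.85, went to 9.76, 9.97 and 6.79 (fall by 2.24 ± 0.52, and by 1.38 without IgM replicate 3), Xaf1 fell by 1.91 (1.10 without it) and Rtp4 by 1.86 (0.94 without it). Without that array 17 of 26 fell, with a median of -0.91, but without unstimulated replicate 3 the count was 7, the median -0.62, and Bst2, Xaf1 and Rtp4 lost their calls (adjusted p = 0.0513, 0.0961 and 0.151). Rtp4 also lost it without unstimulated replicate 1 (adjusted p = 0.0624). In the presentation of antigen by MHC class II, 7 of 13 fell and 1 rose, beside 19.3% and 17.3% of all genes (median -0.81), with the same counts and a median of -0.44 without IgM replicate 3. The falls were in accessory genes: the thiol reductase Ifi30 by 2.37 (1.55 without IgM replicate 3), the ubiquitin ligase Marchf1, which removes class II from the surface, by 2.18, and the peptide-loading genes H2-Oa and H2-DMa by 2.01 and 1.76 (1.33 and 1.10). Without unstimulated replicate 3 the list had 3 falls, and H2-DMa an adjusted p of 0.0616. The class II chains themselves, H2-Ab1, H2-Aa and H2-Eb1, were named after their values were seen, with changes of -0.09, -0.07 and -0.05, none past the threshold. Ciita, the master regulator of class II, rose by 1.09.

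**Figure D3:**
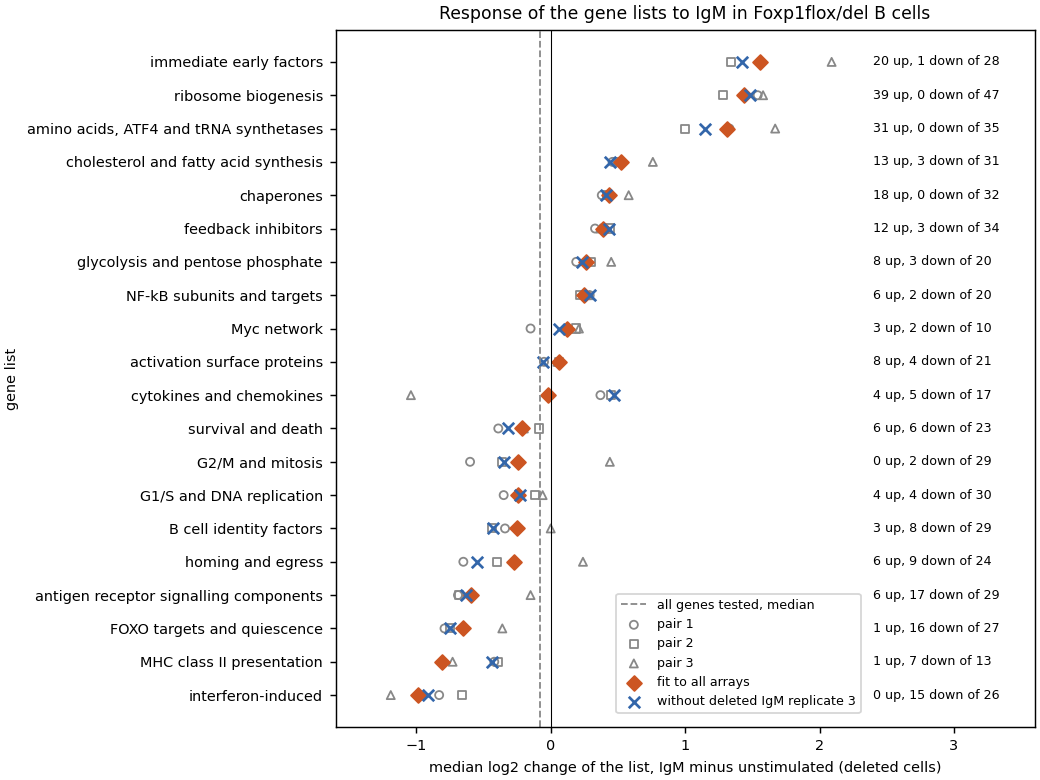
Median log2 change (x axis, IgM minus unstimulated in Foxp1flox/del cells) of each of 20 gene lists (y axis), from the fit to all arrays (diamonds), without deleted IgM replicate 3 (crosses) and in each replicate pair (open symbols), with counts of genes past the threshold at the right and the median of all genes as a dashed line. Immediate early factors, ribosome biogenesis and amino acid genes lie at 1.31 to 1.56 and interferon-induced genes at -0.99, and pair 3 departs most for cytokines, homing and mitosis.

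**Figure D4:**
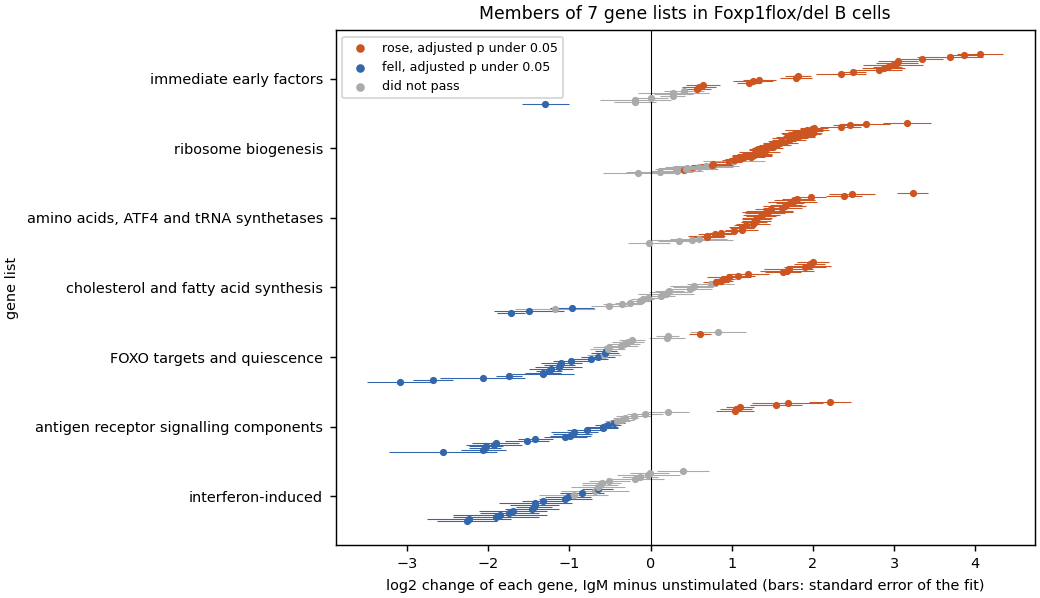
Log2 change with IgM in Foxp1flox/del cells (x axis, bars are the standard error of the fit) of every tested member of 7 lists (y axis), coloured where the gene passed an adjusted p of 0.05. In ribosome biogenesis 39 of 47 members pass as rises, and in the interferon list 15 of 26 pass as falls.

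The response of Foxp1wt/flox cells was set beside that of the deleted cells. In them 3299 genes (35.5%) passed, and 5874 (63.2%) when deleted IgM replicate 3, which enters the estimate of the spread, was left out. With all arrays 2433 genes were called in both genotypes in the same direction, 71.4% of the calls in deleted cells and 73.7% of those in control cells. The difference of the responses, fitted as an interaction, passed for 16 genes (0.172%), 14 (0.151%) with a lower and 2 (0.0215%) with a higher response in deleted cells, and all 16 also passed without IgM replicate 3. Without that array 187 genes passed (2.01%), 107 higher and 80 lower (1.15% and 0.861%), whereas leaving out any other single array gave 6 to 13 genes, and without the replicate block 10 passed, all lower (0.108%).

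For 13 of the 14 genes with a lower response, all 3 unstimulated deleted arrays were above all 3 unstimulated control arrays, which holds for 961 of all genes tested (10.3%). The unstimulated arrays also enter the test that called these genes, so the count is a description. Hsd17b13 was at 2.23 to 2.45 on all 6 control arrays, with and without IgM, while in deleted cells it was near 8 before IgM and near the floor after it (difference of the responses -5.53 ± 0.30). Neo1 (difference -3.38), Tmtc1 (-2.83) and Tgfa, a ligand of the EGF receptor (-2.74), were at 3.07 or lower on all control arrays and at 3.69 or lower with IgM in deleted cells. Qpct (-3.71) was at 2.90 to 3.04 on the control arrays, and with IgM the deleted arrays came down to 5.26 to 5.99. Zfhx3 (-3.97) was at 2.82 to 4.09 in control cells and at 4.27 to 5.12 with IgM in deleted cells. Of the 16 genes, 7 were at or below 4 on every control array, and 7, among them Hsd17b13, Neo1, Tmtc1 and Tgfa, passed the filter on low values only through unstimulated arrays. The falls of genes that passed only through unstimulated arrays, and the differences that rest on them, are a description. A control level at or below 4 leaves little or no room for a fall, so that such differences set a fall against a bound. With IgM, Hsd17b13, Neo1 and Tmtc1 were at 2.96 or lower in deleted cells, so that their falls are bounds as well. Zfhx3 lost its call in 10 of the fits that left out 1 array (adjusted p up to 0.138).

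Spry1 responded in opposite directions. In control cells it was 2.62, 3.42 and 2.86 without and 5.0, 6.26 and 4.40 with IgM, a rise by 2.26 (adjusted p = 0.000364), against its fall by 2.96 in deleted cells (difference -5.22 ± 0.40, adjusted p = 0.000975). In each of the 3 replicates the unstimulated deleted array was above the stimulated control array. Il1r1, the interleukin-1 receptor, reached 8.61, 7.62 and 8.61 with IgM in deleted cells and 8.07, 7.13 and 7.31 in control cells, but started at 6.79, 6.80 and 6.63 in the first and 3.23, 3.07 and 2.72 in the second. Its rise was 1.54 against 4.49 (difference -2.95 ± 0.37, adjusted p = 0.0207, and up to 0.0976 when 1 array was left out, which ended the call in 8 cases). In all, 6 genes were called in both genotypes in opposite directions, and each fell in deleted and rose in control cells: Spry1, the lymphocyte receptor Slamf1, choline kinase Chka, Cyp20a1, Cenpv and Cep83. The last pair did not pass the test of the difference with all arrays (adjusted p = 0.131 and 0.0702). In deleted cells the falls of Chka and Cenpv were near the threshold (adjusted p = 0.0448 and 0.0406). The arrays of Chka overlapped, and without the replicate block its fall did not pass (adjusted p = 0.377), while that of Spry1 did (0.000982).

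Slfn1, a growth-regulatory gene of the Schlafen family, fell less in deleted cells, from 6.29, 4.82 and 4.41 to 4.34, 3.18 and 3.07, than in control cells, from 7.56, 6.89 and 6.26 to 4.41, 3.15 and 2.62 (difference 1.87 ± 0.26). The arrays with IgM overlapped between the genotypes, and the unstimulated level was lower in deleted cells in every replicate. Mturn fell by 0.76 against 2.30 (difference 1.54 ± 0.23, adjusted p = 0.0458). Slfn1 passed the filter on low values only through unstimulated arrays, so that its falls and their difference are a description. Leaving out any one of the 11 arrays other than deleted IgM replicate 3 ended the call of the difference for Slfn1 and Mturn (adjusted p up to 0.187 and 0.199).

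For Prdm1 and Bcl2l11 the difference did not pass with all arrays but passed without IgM replicate 3. This holds for most of the 187 genes called in that fit, since 16 were called with all arrays. Prdm1 was 7.24, 7.71 and 7.01 in unstimulated and 7.67, 7.39 and 7.76 in stimulated control cells, a change of 0.29 against the rise by 2.32 in deleted cells. The difference of 2.03 ± 0.38 had an adjusted p of 0.12, and 0.0387 at 1.78 without IgM replicate 3. Bcl2l11 was 11.98, 12.06 and 11.61 in unstimulated control cells, above all unstimulated deleted arrays, and 12.38, 12.26 and 12.13 with IgM, beside 12.32, 12.15 and 12.15 in deleted cells. Its difference of 0.87 ± 0.20 had an adjusted p of 0.177, and 0.0284 at 0.79 without that array. For the lists, the median difference of the responses was largest in homing and egress (0.50, beside 0.07 over all genes). It was 0.25 for ribosome biogenesis, 0.42 for amino acid genes, 0.46 for interferon-induced genes and 0.45 for receptor signalling components. For the first 2 of these 4 lists the median rise was larger in deleted than in control cells (1.44 and 1.31 against 1.21 and 0.99). For the last 2 the median fall was smaller (-0.99 and -0.59 against -1.36 and -0.92). Without IgM replicate 3 the median differences of these 4 lists were 0.20, 0.26, 0.36 and 0.28, beside 0.03 over all genes. The range over the lists was then -0.17 (cholesterol and fatty acid synthesis) to 0.50 (homing and egress).

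**Figure D5:**
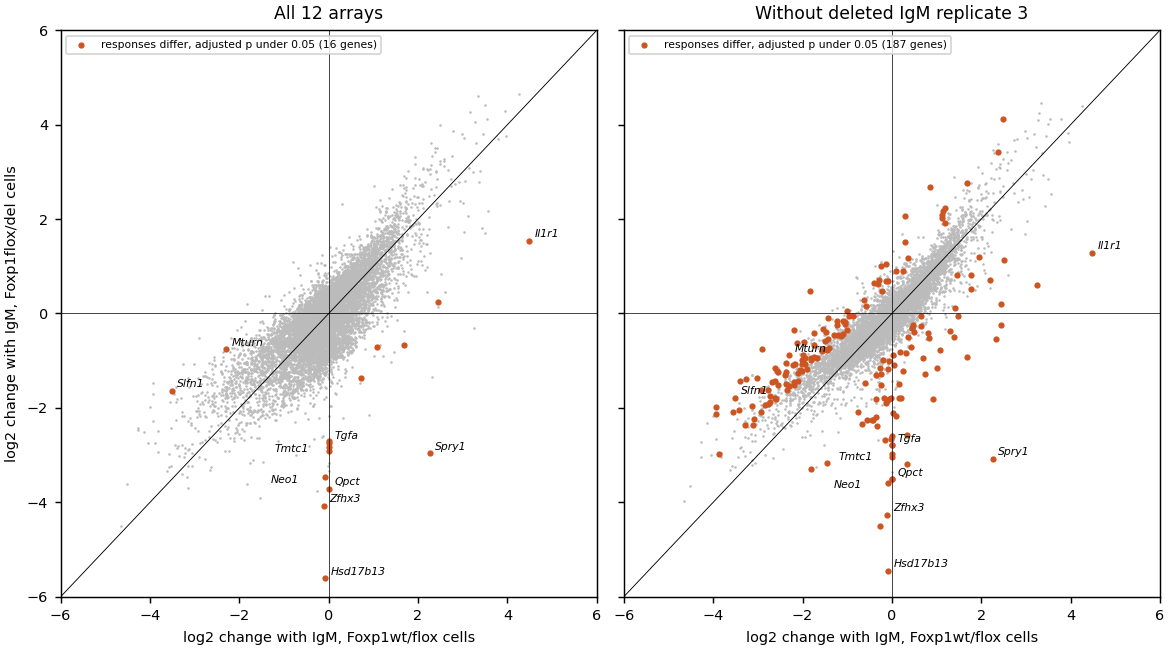
Log2 change with IgM in Foxp1flox/del cells (y axis) against that in Foxp1wt/flox cells (x axis), 1 point per gene, with genes whose responses differ in orange, over all 12 arrays (left) and without deleted IgM replicate 3 (right). The number of orange points goes from 16 to 187, and Hsd17b13, Zfhx3, Qpct and Neo1 lie near 0 on the x axis and between -3.47 and -5.61 on the y axis of the left panel.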

How the data were processed

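Total RNA of 12 samples (4 groups of 3) was measured on one-colour Affymetrix arrays. The deposited values are log2 expression values, background-corrected, normalized and summarised per probe set by the authors with GCRMA, per the submitters' processing notes (version not stated), and were used as deposited. GCRMA sets undetected probe sets near a floor, which understates folds of low genes, and the number of arrays, not a read depth, limits the precision. Of 45101 probe sets (64 controls), 34945 had 1 gene in the platform annotation, 932 several and 9160 none; 34741 symbols were matched by gene ID to RefSeq (GRCm38.p6). A probe set was kept if above 4 on at least 3 of the 12 arrays, and a gene was represented by its passing probe set with the highest mean, leaving 9293 genes.

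In limma 3.58.1 (R 4.3.3), a mean per group and the replicate number as a fixed block were fitted to all 12 arrays, with contrasts for the IgM response in each genotype and their difference, eBayes, and Benjamini-Hochberg adjustment over all genes at 0.05. The fit was tested on simulated data. The block was used because array names in the labels run in consecutive numbers within each replicate number, and deviations of same-numbered deleted arrays from their group means correlated at 0.72, 0.32 and 0.56. Named genes were the 15 largest rises and falls without overlap (predicted genes left out), up to 4 members of each list with the largest change past the threshold (or 2 with the smallest p), up to 8 genes a direction with the largest difference of the responses, and Foxp1, Bcl2l1, Bcl2, Mcl1 and Bcl2l11. Members and lists were chosen with earlier results of these data known, so lists are described by counts and medians without a test. Genes named beyond the rule (Jund, Tob2, Wars, Tsr1, Prdm1 and Bcl2l11 as differences, and those marked) were chosen after their values were seen. Alternatives covered the block, filters, scaling, probe set choice, variance model, array weights, thresholds and left-out arrays.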

Additional observations from a re-analysis of the deposited data

Results flagged for a closer look

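The responses to IgM differed between the genotypes, by the interaction test over all 12 arrays (limma, Benjamini-Hochberg), for 10 named genes. Given as the response in Foxp1flox/del cells minus that in Foxp1wt/flox cells on the log2 scale, the difference was -5.53 for Hsd17b13, -5.22 for Spry1, -3.97 for Zfhx3, -3.71 for Qpct, -3.38 for Neo1, -2.95 for Il1r1, -2.83 for Tmtc1 and -2.74 for Tgfa. It was 1.87 for Slfn1 and 1.54 for Mturn. Of these, Hsd17b13, Neo1, Tmtc1, Tgfa and Slfn1 passed the filter on low values only through unstimulated arrays, so that their falls and differences are a description. Hsd17b13, Qpct, Neo1, Tmtc1 and Tgfa were at or below 4 on every control array, so that their differences set a fall in deleted cells against a bound. For Hsd17b13, Neo1 and Tmtc1 the deleted arrays with IgM were near the floor too, so that the fall is itself a bound. The call was lost in 11 of the fits that left out 1 array for Slfn1 and Mturn, in 10 for Zfhx3 and in 8 for Il1r1.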

How the results depend on the processing

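No named gene changed direction under any alternative. Of 108 named genes, 83 kept their side of the threshold for the response of deleted cells under every alternative, as did 0 of 10 for the difference of the responses. Without the replicate block the counts were 1765 for the response of deleted cells (909 rises, 856 falls), 1920 for control cells and 10 for the difference. The falls in receptor signalling, quiescence, interferon and class II lists numbered 6, 10, 8 and 3, beside 9.21% of all genes. The rises in these lists numbered 5, 1, 0 and 1, beside 9.78%. Besides Mga and Pou2f2, calls in deleted cells were lost for Cd79a (adjusted p = 0.0729), Rpia (0.0572), H2-DMa (0.0821) and Rtp4 (0.125). Aurkb (0.109), Slfn1 (0.0819) and Mturn (0.0768) lost theirs as well. Array weights, which gave deleted IgM replicate 3 a weight of 0.022 against 0.875 to 2.361 for the others, gave 5524 (2515 rises, 3009 falls), 5906 and 396. Testing every probe set gave 5997 (3353 rises), 5721 and 30. There, some called genes had a further probe set that moved in the same direction but did not pass. These were Grasp (0.47, adjusted p = 0.49), Gng4 (1.02, 0.0572), Il16 (-0.22, 0.526), Bcl2 (-0.64, 0.161) and Cdkn1b (-0.70, 0.112). The same held for Aurkb (-0.66, 0.0794), Ccne1 (-0.63, 0.0758), Rtp4 (-0.64, 0.0665) and several of Ccnd2 (0.71 to 0.84, 0.0912 to 0.145). The 6 deleted arrays alone gave 897 (454 rises, 443 falls). At an adjusted p under 0.01 the counts were 1960 (1002 rises, 958 falls), 2065 and 6, and with a change of at least 1 as well as 0.05 they were 1971 (857 rises, 1114 falls) and 1886. A filter above 6 gave 10 differences and the mean of probe sets 27. Without both deleted arrays of pair 3, control calls numbered 5917 and differences 176.

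Leaving out 1 array, or all 4 of a replicate number, gave 952 to 4976 calls in deleted cells (520 to 2262 rises, 432 to 2714 falls), 1071 to 5874 in control cells and 0 to 187 differences. The low ends came from leaving out all 4 arrays of replicate 1 (0 differences in limma also without replicate 2, with 338 and 404 at an unadjusted p under 0.05), and the high ends from leaving out deleted IgM replicate 3. Of single arrays, deleted unstimulated replicate 3 moved the count in deleted cells by more than 1.5 times (to 2241, with 1144 falls), deleted IgM replicate 3 moved the falls by that much (to 2714) and the control count (to 5874), and each array except deleted unstimulated replicate 3 (13) moved the count of differences by that much, to 187 without deleted IgM replicate 3 and to 6 to 10 without each of the others. Values near the GCRMA floor limit the folds of genes that were undetected in 1 group.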
